A study of Homo sapiens with 5 samples.

Results

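The genes described here encode factors that build ribosomes in the nucleolus: box C/D small nucleolar ribonucleoprotein (snoRNP) and other nucleolar proteins, the small-subunit processome, late maturation factors of the 40S subunit and assembly factors of the 60S subunit. They were taken from a list of 53 gene symbols. Of these, 51 were in the count files under the listed symbol, and all 51 passed the filter on low counts, out of 26485 genes in the files and 14536 tested. UTP4 and NOP53 were absent under those symbols. Their older symbols, CIRH1A and GLTSCR2, were present and are given apart from the 51.

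Expression was measured by sequencing of transcript 3′ ends in SW480 cells, a line established from a human colorectal cancer. All cells, controls included, expressed dCas9-KRAB, a Cas9 without nuclease activity joined to a repressor domain, so that a guide RNA can direct repression to a chosen gene. Per the treatment protocol, 2 control libraries came from cells transduced with control guides and 3 knockdown libraries from cells transduced with a guide against AKAP12, an anchoring protein for protein kinase A. The sample titles and one label field name the same groups as shControl and shAKAP12, so the labels give different silencing methods for the same libraries. RNA was extracted 48 hours after seeding in both groups. The labels name no separate cultures or clones, and p-values here measure only the spread between these libraries, which may be technical.

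Ribosome assembly starts in the nucleolus, where RNA polymerase I makes a long precursor of the ribosomal RNAs. Box C/D snoRNPs, which carry the methyltransferase fibrillarin (FBL), guide 2′-O-methylation of that precursor, and the processome folds and cleaves its small-subunit part. The PeBoW complex of PES1, BOP1 and WDR12 acts in processing of the large-subunit RNAs. The output of this pathway is known to follow growth signals and the transcription factor MYC, which binds the E-box CACGTG, and colorectal cancer cells usually run the pathway at a high rate.

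Libraries held 4935096 and 8670141 counts for controls 1 and 2, and 9311026, 6890868 and 7763190 in knockdown libraries 1 to 3. In CPM (counts relative to library size, scaled by the trimmed mean of M-values), AKAP12 was at 2870 and 1550 in control libraries and at 1159, 1063 and 1008 in the knockdown libraries, with no overlap. Its log2 fold change was −1.04 (SE 0.31, edgeR quasi-likelihood test, Benjamini-Hochberg adjusted p = 0.0513), and it was −0.52 without control 1 and −1.42 without control 2. The controls stood apart from each other: across all tested genes their median absolute log2 CPM difference was 0.64, against 0.19 to 0.22 between knockdown libraries. Genes with a total exon length under 300 bases held 8.78% and 1.94% of the control counts and 0.61% to 0.92% of the knockdown counts. Of the epithelial markers, KRT18, KRT19 and EPCAM were present in all 5 libraries, while LGR5 and KRT20 were at or near 0. The 12 epithelial markers summed to 1042 and 1596 CPM in control and 1422 to 1665 in knockdown libraries, with 1 of 10 tested higher (KRT8, log2 1.78). Summed over each list, 8 stromal markers ranged from 420.3 to 500.1 CPM in the controls and from 466 to 538 in the knockdown, with 1 of 8 lower, and 10 blood and endothelial markers from 141 to 193 and from 136 to 172, with 2 of 10 lower. None of these 18 genes was at 0 in a library, and their part in the results was not tested. Over all tested genes 11.2% were higher in the knockdown and 11.4% lower.

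Many promoters of ribosome assembly genes are known to hold E-boxes close to the start site. The RefSeq promoter windows (GRCh38.p14, 250 bases before and 50 after the start site) matched 42 of the 51 genes. CACGTG, which reads the same on both strands, was in 17 of 42 (40.5%), against 12.3% of tested genes with a window and 8.77% of all symbols in the table. Of 79 other assembly factors with a window, 30.4% held it. In 14 of the 17 genes (82.4%) a copy lay after the start site. Among genes that hold the motif, it did so in 13 of 24 other assembly factors (54.2%) and in 11.7% of tested genes. The windows below come from the 6 genes that passed the test for a change and hold the motif after the start site. FBL, WDR43, NOP14, IMP4 and PES1 were lower in the knockdown and EBNA1BP2 was higher. Capitals mark the E-box, and each runs 5′ to 3′ on the gene's strand. They lie at chr19:39846356-39846385 (FBL, minus strand), chr2:28894658-28894687 (WDR43, plus), chr4:2963374-2963403 (NOP14, minus), chr2:130342900-130342929 (IMP4, plus), chr22:30591880-30591909 (PES1, minus) and chr1:43172241-43172260 (EBNA1BP2, minus, ending where the table's window ends). The PES1 window lies inside the span that the count files give for the gene, and the others lie near the end of theirs where transcription starts.
FBL: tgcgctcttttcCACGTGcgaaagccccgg
WDR43: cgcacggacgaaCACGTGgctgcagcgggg
NOP14: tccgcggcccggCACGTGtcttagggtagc
IMP4: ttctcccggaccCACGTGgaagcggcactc
PES1: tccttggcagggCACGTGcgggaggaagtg
EBNA1BP2: gcgattcggtggCACGTGga

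The letters on either side of the hexamer differ among these windows, and the hexamer is what they share. By call, among listed genes with a window, 5 of 7 lower in the knockdown held the motif, 1 of 6 higher and 11 of 29 of the rest. Over all tested genes with a window, 12.8% of those lower and 13.6% of those higher held it. The position after the start site, the split by call and the windows to print were chosen after the values were seen. The other hexamers searched, on both strands, were GGGCGG in 69.0% of the 42 (75.3% of tested genes), CCGGAA in 54.8% (33.3%) and TCGCGA in 11.9% (6.76%). The median GC content of the windows was 57.3% for listed genes that were higher (7 windows) and 67.5% for those that were lower (8 windows), and over all tested genes it was 64.3% for those higher and 65.8% for those lower. A match is a description of the letters and does not show binding.

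**Figure D1:**
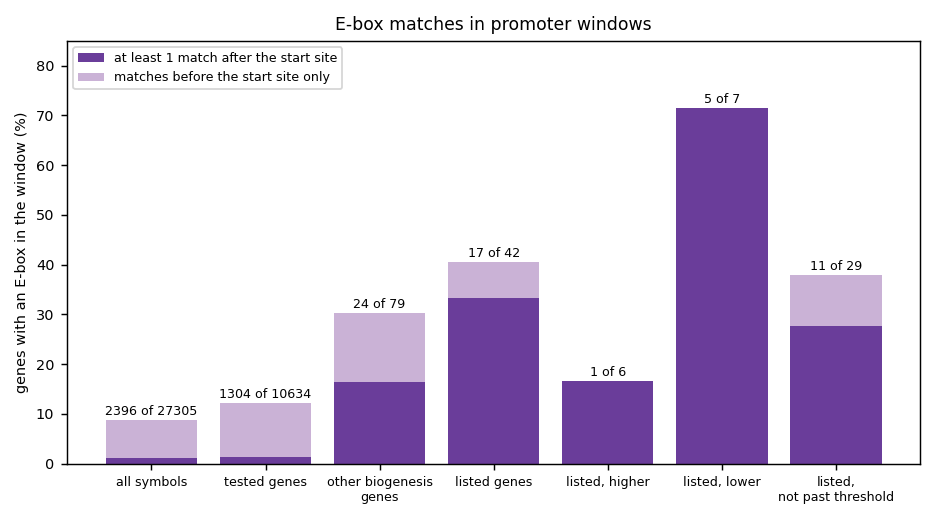
Bars give the percent of genes whose promoter window holds CACGTG, for all symbols in the table, tested genes, other assembly factors, the listed genes and the listed genes by call; dark parts hold a copy after the start site and light parts only before it. The 42 ribosome assembly genes with a window stand at 40.5%, against 30.4% of other assembly factors and 12.3% of tested genes. A copy lies after the start site in 14 of 17 listed genes with the motif and in 13 of 24 other assembly factors with it.

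The stretch before the start site varied among genes of the same direction, and examples chosen after the values were seen are shown from FBL and PES1, which were lower, and UTP3 and NOB1, which were higher. The 250 bases before the FBL start site (chr19:39846380-39846629, minus strand) hold 2 copies of GGGCGG and 1 of CCGGAA, in capitals. The same stretch of UTP3 (chr4:70688282-70688531, plus strand) holds 2 copies of CCGGAA and 0 of GGGCGG. That of NOB1 (chr16:69754927-69755176, minus strand), also higher, holds 2 copies of GGGCGG, 1 of them on the opposite strand as CCGCCC, and 0 of CCGGAA. That of PES1 (chr22:30591911-30592160, minus strand), lower like FBL, holds 0 of either. No split of these motifs by direction is read from these 4 windows.
FBL: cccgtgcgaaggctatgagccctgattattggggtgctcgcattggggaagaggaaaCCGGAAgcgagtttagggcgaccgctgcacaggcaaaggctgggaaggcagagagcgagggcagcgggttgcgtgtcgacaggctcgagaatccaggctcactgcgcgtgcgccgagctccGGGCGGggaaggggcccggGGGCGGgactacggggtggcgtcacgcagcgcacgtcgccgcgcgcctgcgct
UTP3: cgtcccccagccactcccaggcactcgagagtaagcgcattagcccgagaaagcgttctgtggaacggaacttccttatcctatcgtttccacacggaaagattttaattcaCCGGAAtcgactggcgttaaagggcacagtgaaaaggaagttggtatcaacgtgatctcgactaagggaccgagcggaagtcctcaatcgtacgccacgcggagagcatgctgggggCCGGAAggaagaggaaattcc
NOB1: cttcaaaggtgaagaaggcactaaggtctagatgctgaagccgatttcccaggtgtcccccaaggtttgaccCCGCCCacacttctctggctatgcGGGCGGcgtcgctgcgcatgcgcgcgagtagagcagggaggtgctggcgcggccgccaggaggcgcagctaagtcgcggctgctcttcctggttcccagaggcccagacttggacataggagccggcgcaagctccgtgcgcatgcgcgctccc
PES1: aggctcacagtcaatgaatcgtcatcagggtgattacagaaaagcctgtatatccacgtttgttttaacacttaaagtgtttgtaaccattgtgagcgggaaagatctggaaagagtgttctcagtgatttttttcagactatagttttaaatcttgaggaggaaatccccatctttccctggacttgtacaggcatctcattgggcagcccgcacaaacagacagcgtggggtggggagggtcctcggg

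Genes of the pathway differed in both directions. Of the 51 genes, 8 were higher in the knockdown, 9 were lower and 34 did not pass the test at an adjusted p of 0.05. Over all tested genes 22.6% passed, 11.2% higher and 11.4% lower. The median log2 fold change of the 51 was −0.08, against 0.04 over all tested genes. Changes that passed ran from 1.83-fold to 2.62-fold higher and from 1.87-fold to 4.27-fold lower. Changed genes lay in all 4 role groups, and each group held genes of both directions. The 2 groups of libraries did not overlap for 35 of the 51, 18 higher and 17 lower, against 60.1% of tested genes. Together the 51 took 1.53% and 1.51% of control counts and 1.35%, 1.28% and 1.30% of knockdown counts. By role, the share of the snoRNP and nucleolar group was 0.90% and 0.89% in control and 0.740%, 0.690% and 0.698% in knockdown libraries, and that of the processome group 0.358% and 0.339%, then 0.292%, 0.276% and 0.276%. Only as shares of raw counts was 60S assembly higher after knockdown, at 0.207% and 0.211%, then 0.247%, 0.240% and 0.249%. The same held for late 40S factors, at 0.0651% and 0.0628%, then 0.0728%, 0.0699% and 0.0765%. Summed CPM overlapped for both, at 2508 and 2100, then 2357, 2215 and 2374 for 60S assembly. Late 40S sums were 787 and 625, then 694, 645 and 731. Sums of the snoRNP and processome groups stayed lower in every knockdown library. Such sums weigh abundant genes most. In control 1, NCL held 22244 of 44417 snoRNP group counts and WDR43 6166 of 17675 processome counts. Median CPM overlapped in both groups, so the sums do not describe most of their genes. It was 591 and 770, then 679, 645 and 666 for the snoRNP group. For the processome it was 116 and 110, then 111, 100 and 97.5. The 60S assembly median was 143 and 90.4, then 84.8, 77.1 and 81.7, lower after knockdown without overlap. Its raised share and its median thus moved in opposite directions. Late 40S medians overlapped, at 78.5 and 85.6, then 77.6, 80.6 and 95.7. TERT alone made up 7.43% and 3.54% of control counts, against 0.0451% to 0.249% after knockdown. Its part in the raised shares was not tested. In bulk RNA, a change in the number of cells that express a gene and a change in RNA per cell cannot be told apart.

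**Figure D2:**
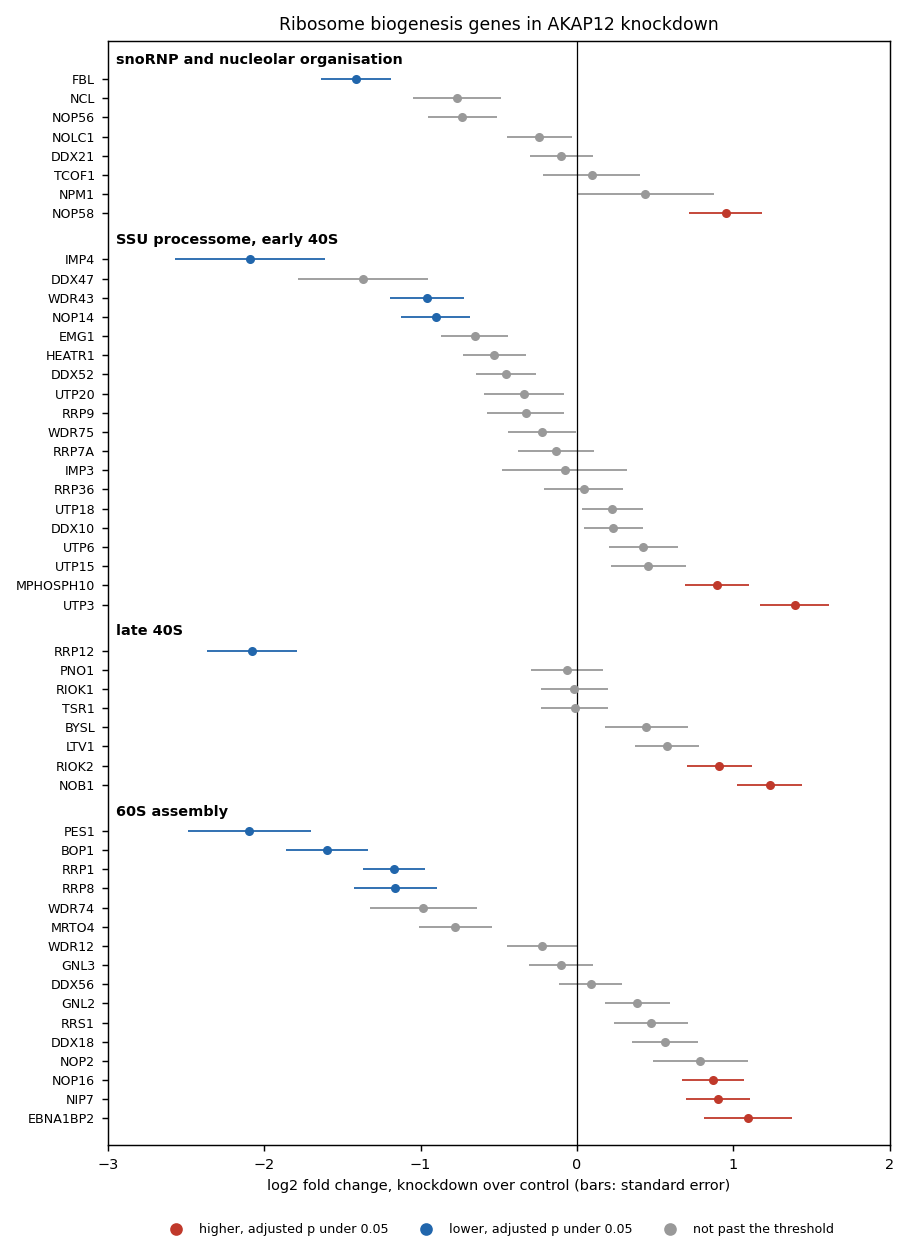
Log2 fold change (knockdown over control) of each of the 51 genes, with its standard error, grouped by role; red points were higher and blue points lower at an adjusted p under 0.05, and grey points did not pass. Each role group holds points on both sides of 0, from −2.09 (PES1) to 1.39 (UTP3).

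Transcripts of the box C/D snoRNP proteins FBL and NOP58 changed in opposite directions. FBL (chr19:39834453-39846414, hg38 as in the files), the methyltransferase of the particle, was at 2062 and 2000.2 CPM in the controls and at 853, 774 and 662 in the knockdown. Both controls lay far above all knockdown libraries and close to each other. FBL fell 2.66-fold, to a knockdown mean of 763 ± 95.9 CPM (SD, n = 3), which is −1.41 on the log2 scale (SE 0.23, adjusted p = 0.0166). NOP58 (chr2:202265792-202303661), a core scaffold of the same particle, was at 292 and 287 CPM in the controls and at 530.2, 478 and 671 in the knockdown. It rose 1.93-fold (log2 0.95, SE 0.23, adjusted p = 0.0333), again with controls that nearly coincide. NOP56, its partner scaffold, was at 1261 and 953 CPM and at 683, 657 and 659 in the knockdown, which did not overlap but missed the threshold (log2 −0.73, adjusted p = 0.0551).

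Among the nucleolar organisers, nucleolin (NCL), an RNA-binding protein of the dense nucleolar layers, was at 5449 and 3606 CPM in the controls and at 2875, 2544 and 2560.1 in the knockdown (log2 −0.77, adjusted p = 0.0875). Every knockdown library lay below both controls. NOLC1, a chaperone of snoRNPs, was at 430 and 326 CPM and then at 323, 308 and 328 (log2 −0.24, adjusted p = 0.419), and the groups overlapped. Nucleophosmin (NPM1), the chief protein of the granular layer, was at 285 CPM in control 1 and 846 in control 2, and at 863, 699 and 737 in the knockdown. Control 1 lay below all knockdown libraries and control 2 among them. Its log2 fold change of 0.44 (SE 0.44) was −0.14 without control 1 and 1.42 without control 2. TCOF1, the treacle protein that works with polymerase I, was at 348 and 181 CPM in the controls and at 249, 269 and 328 in the knockdown, between the controls, and its value of 0.10 went to 0.64 and −0.31. DDX21, a helicase that acts on the precursor, was at −0.10 (adjusted p = 0.74).

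In the small-subunit processome, 2 of 19 genes were higher, 3 were lower and 14 did not pass. UTP3 (chr4:70688479-70690551), also called SAS10, was at 30.9 and 32.9 CPM in the controls and at 73.4, 80.5 and 97.5 in the knockdown. All knockdown libraries lay well above both controls, and UTP3 rose 2.62-fold (log2 1.39, SE 0.22, adjusted p = 0.0163), the highest log2 value of the 51 genes in this fit. MPHOSPH10 (chr2:71130314-71150102) and IMP4 (chr2:130342916-130346624) encode subunits of the Mpp10 complex, together with IMP3. MPHOSPH10 was at 78.4 and 82.0 CPM in the controls and at 147, 131 and 170 in the knockdown, and it rose 1.86-fold (adjusted p = 0.0285).

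IMP4 went the other way, from 502 and 138 CPM in the controls to 73.8, 79.8 and 71.3 in the knockdown. It fell by 2.09 on the log2 scale (SE 0.48, adjusted p = 0.0286), with control 1 far above control 2. Without control 1 the log2 value was −0.88, and without control 2 it was −2.75. IMP3 was at 73.5 and 186 CPM in the controls and at 146, 130 and 94.3 in the knockdown, all between the controls (log2 −0.08, adjusted p = 0.90).

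WDR43 (chr2:28894643-28948220), a subunit of the t-UTP complex that links polymerase I transcription to processing, was at 1510 and 1086 CPM in the controls and at 728, 630 and 648 in the knockdown. It fell 1.94-fold (log2 −0.96, adjusted p = 0.0341). NOP14 (chr4:2937937-2963506), a processome protein that binds EMG1, was at 339 and 232 CPM and then at 159, 152 and 147. It fell 1.87-fold (log2 −0.90, adjusted p = 0.0335), with the knockdown libraries within a narrow band below both controls.

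The next genes of this group by p did not pass. DDX47, a helicase, was at 164 and 56.2 CPM in the controls and at 47.6, 38.4 and 41.3 in the knockdown (log2 −1.37, SE 0.41, adjusted p = 0.0554). Most of its distance came from control 1, and its value without that library was −0.40. EMG1, a methyltransferase of the 18S RNA, was at 235 and 220 CPM and then at 175, 132 and 126 (log2 −0.65, adjusted p = 0.0688). HEATR1, a t-UTP subunit, was at 208 and 175 CPM and then at 147, 119 and 132 (log2 −0.53, adjusted p = 0.0956). For EMG1 and HEATR1, as for DDX52, a helicase, the knockdown lay below both controls. DDX52 was at 436 and 381 CPM and then at 282, 308 and 305 (log2 −0.45, adjusted p = 0.123). UTP6, a UTP-B subunit, was at 43.6 and 37.5 CPM and then at 63.3, 48.5 and 51.3 (log2 0.43, adjusted p = 0.191), with the knockdown above both controls. The other 9 genes, UTP15, RRP9, UTP20, DDX10, UTP18, WDR75, RRP7A, IMP3 and RRP36, had log2 values from −0.34 (UTP20) to 0.46 (UTP15). The t-UTP subunits other than WDR43 and HEATR1 were UTP15 at 0.46 and WDR75 at −0.22, neither of which passed. CIRH1A, the older symbol of UTP4, also of this complex, was at 0.71 (adjusted p = 0.179).

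Among the late 40S factors, 2 of 8 were higher, 1 was lower and 5 did not pass. RRP12 (chr10:97356701-97401370), a factor of 40S maturation and export, was at 215 and 115 CPM in the controls and at 43.0, 38.6 and 35.3 in the knockdown. It fell 4.22-fold (log2 −2.08, SE 0.29, adjusted p = 0.0141) and had the lowest p of the 51 genes. NOB1 (chr16:69741854-69754968), the endonuclease that makes the 3′ end of 18S RNA, was at 34.5 and 42.3 CPM and then at 83.6, 91.5 and 96.8. It rose 2.35-fold (log2 1.23, SE 0.21, adjusted p = 0.0176), with every knockdown library above both controls.

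RIOK2 (chr5:97160867-97183301), a kinase of the last cytoplasmic steps, was at 16.2 and 16.1 CPM in the controls and at 30.3, 29.2 and 31.4 in the knockdown. It rose 1.88-fold (log2 0.91, adjusted p = 0.0289), and libraries within each group nearly coincided. LTV1, an export adaptor, was at 81.3 and 87.3 CPM and then at 127, 108 and 142 (log2 0.58, adjusted p = 0.0837). BYSL, the human ENP1, was at 20.1 and 32.6 CPM and then at 36.5, 39.1 and 32.7 (log2 0.44, adjusted p = 0.251). Both were above the controls in each knockdown library without passing. PNO1, a partner of NOB1, RIOK1, a kinase, and TSR1, a GTPase-like factor, were at −0.06, −0.02 and −0.01, with groups that overlapped.

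In 60S assembly, 3 of 16 genes were higher, 4 were lower and 9 did not pass. Of the PeBoW complex, PES1 (chr22:30576625-30607013) was at 267 and 99.4 CPM in the controls and at 46.6, 43.7 and 38.1 in the knockdown. It fell 4.27-fold (log2 −2.09, SE 0.39, adjusted p = 0.0208). The log2 value was −1.21 without control 1 and −2.64 without control 2. BOP1 (chr8:144262046-144291438) was at 270.2 and 157 CPM and then at 71.3, 74.5 and 65.2, and fell 3.03-fold (log2 −1.60, SE 0.26, adjusted p = 0.017). WDR12 (chr2:202880600-202912226), the third subunit, was at 121 and 92.4 CPM and then at 107, 79.8 and 87.2, with overlap (log2 −0.22, adjusted p = 0.493).

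RRP1 (chr21:43789537-43804102), a nucleolar factor of large-subunit RNA processing, was at 94.6 and 74.2 CPM in the controls and at 39.7, 36.6 and 36.0 in the knockdown, and it fell 2.25-fold (log2 −1.17, adjusted p = 0.0181). RRP8 (chr11:6599914-6603650), a nucleolar methyltransferase of 28S RNA, was at 154 and 88.3 CPM and then at 51.9, 57.7 and 52.5, and fell 2.24-fold (log2 −1.16, adjusted p = 0.0283; −0.71 without control 1). In both genes the knockdown libraries lay together below the controls. NOP16 (chr5:176383937-176388762), a 60S assembly factor, rose 1.83-fold, from 54.4 and 67.4 CPM to 112, 110.4 and 112 (log2 0.87, adjusted p = 0.0282). Its knockdown libraries were the closest of the examples here, at 112 ± 1.00 CPM (SD, n = 3).

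NIP7 (chr16:69339512-69343110), a factor of 60S assembly and rRNA processing, was at 21.1 CPM in each control and at 42.1, 37.0 and 39.1 in the knockdown (log2 0.90, adjusted p = 0.0283). EBNA1BP2 (chr1:43164174-43172570), the human EBP2, was at 167 and 292 CPM and then at 479, 471 and 520 (log2 1.09, SE 0.28, adjusted p = 0.0374). All knockdown libraries lay above both controls in these genes. The 9 genes that did not pass ran from −0.98 (WDR74, adjusted p = 0.079) to 0.79 (NOP2, a methyltransferase of 28S RNA, adjusted p = 0.0985). Between them were MRTO4 at −0.78 (adjusted p = 0.0543), WDR12 at −0.22, GNL3 at −0.10, DDX56 at 0.09, GNL2 at 0.38, RRS1 at 0.47 and DDX18 at 0.56. GLTSCR2, the older symbol of NOP53, was at 0.27 (adjusted p = 0.705).

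**Figure D3:**
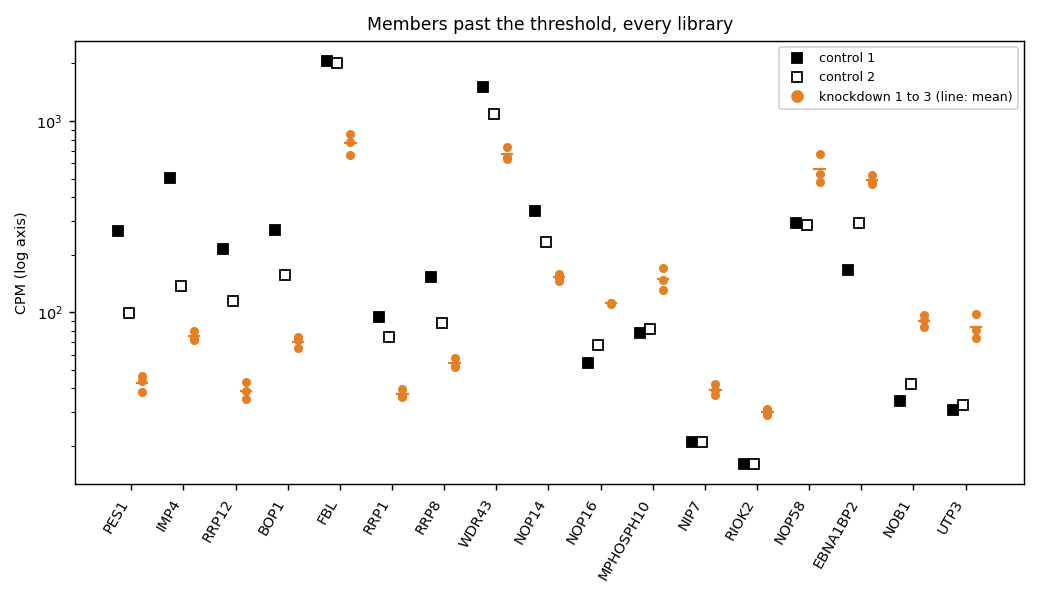
CPM on a log axis of the 17 genes that passed, with control 1 as a filled square, control 2 as an open square, knockdown libraries as circles and their mean as a line. FBL, NOP58, MPHOSPH10, UTP3, RIOK2 and NIP7 have controls that nearly coincide, while IMP4 and PES1 have control 1 far above control 2.

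Ratios within complexes differed between the groups of libraries for some pairs and overlapped for others. The 10 ratios computed are read counts of one gene over those of another in the same library, so they do not depend on the library scaling. They are read only between libraries, since counts of different genes are not on a common scale, and the pairs were picked after the values were seen, with no test. Transcript GC content differed within some pairs, at 54.3% for FBL and 41.3% for NOP58, and 53.5% for IMP4 and 41.2% for MPHOSPH10. A GC effect that varied between libraries would not cancel in such a ratio, and its part was not tested. With the GC offsets given below, NOP58 and MPHOSPH10 no longer passed, while FBL and IMP4 did. FBL over NOP58 was 7.05 and 6.97 in the control libraries, then 1.61, 1.62 and 0.99 in the knockdown. NOP56 over NOP58 was 4.31 and 3.32 and then 1.29, 1.37 and 0.98. FBL over NOP56 was 1.64 and 2.10 and then 1.25, 1.18 and 1.00. Both control values were above every knockdown value in each of these ratios, by the widest margin for FBL over NOP58. For the ratios over NOP58 this separation followed from single genes that moved in opposite directions without overlap. It is not a further result on these pairs.

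IMP4 over MPHOSPH10 was 6.40 and 1.68 in the control libraries, then 0.50, 0.61 and 0.42 in the knockdown, while IMP3 over MPHOSPH10 was 0.94 and 2.27 and then 0.99, 0.99 and 0.55, which overlapped. In PeBoW, PES1 over WDR12 was 2.22 and 1.08 and then 0.44, 0.55 and 0.44, and BOP1 over WDR12 was 2.24 and 1.70 and then 0.67, 0.93 and 0.75. PES1 over BOP1, by contrast, was 0.99 and 0.63 in the control libraries, then 0.65, 0.59 and 0.58 in the knockdown, which overlapped. RRP12 over NOB1, both late 40S factors, was 6.22 and 2.71 and then 0.51, 0.42 and 0.36. DKC1 over NOP10, of the H/ACA particle, was 1147 and 115 and then 9.43, 8.84 and 10.2, from only 11 NOP10 reads in control 1. The separation for IMP4 over MPHOSPH10, RRP12 over NOB1 and DKC1 over NOP10 likewise followed from genes that moved in opposite directions without overlap.

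**Figure D4:**
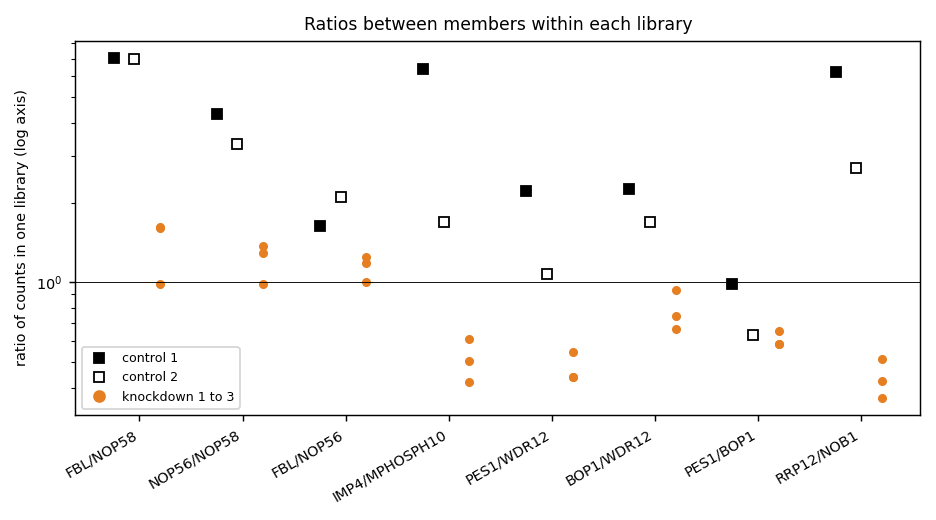
Ratio of read counts of gene pairs within each library on a log axis, with control 1 as a filled square, control 2 as an open square and knockdown libraries as circles. FBL over NOP58 is at 7.05 and 6.97 in the controls and at 1.62 or less in every knockdown library, while PES1 over BOP1 overlaps between groups. The gap for FBL over NOP58 follows from genes that moved in opposite directions without overlap.

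The 2 controls differed more than the knockdown libraries did. Their median absolute log2 CPM difference over the 51 genes was 0.40, against 0.13 to 0.16 between knockdown libraries. Over all tested genes it was 0.64, against 0.19 to 0.22, so the gap was not particular to the 51. In 19 of the 51 genes the controls were over 1.5-fold apart and in 6 over 2-fold, while the knockdown libraries were over 1.5-fold apart in 1 gene. Control 2 lay between control 1 and the knockdown mean in 36 of the 51, and in 15 of the 17 that passed. Control 1 was above control 2 in all 9 genes that fell and in 2 of the 8 that rose. How often these orders occur over all tested genes is not given here. None of the 17 changed sign without either control, and their smallest change without control 1 was 0.60 on the log2 scale in size (NOP14). In all 17 the groups of libraries did not overlap, so the kept sign followed from that and is not a check on these genes. Among the other 34, 11 changed sign between leaving out control 1 and leaving out control 2.

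**Figure D5:**
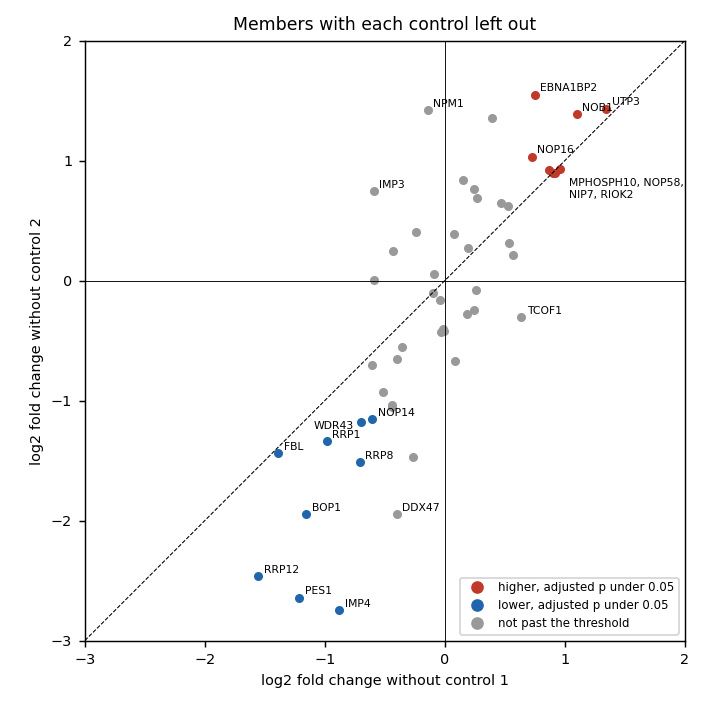
Log2 fold change of each of the 51 genes without control 1 (horizontal) and without control 2 (vertical); red and blue genes passed the test with all 5 libraries, grey genes did not, and the dashed line marks equal values. The 17 coloured points keep their sign on both axes, which follows from groups of libraries that do not overlap, and 11 grey points change sign. IMP4 (−0.88 and −2.75) lies farthest from the line among the coloured points.

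Leaving out any 1 knockdown library left 0 of the 51 genes past the threshold by edgeR, and 0 of all tested genes. At an unadjusted p under 0.05, 20, 19 and 17 of the 51 passed without knockdown library 1, 2 and 3, against 28.2%, 28.8% and 26.3% of tested genes. Without control 1, 14 were higher and 18 lower, against 20.3% and 17.0% of tested genes. Without control 2, 17 were higher and 21 lower, against 30.5% and 27.6%, so calls rose over all genes as well. In both fits the lone control was assumed to vary like the knockdown libraries. DESeq2 on the same counts gave 8 higher and 15 lower (15.0% and 15.7% of tested genes) and kept all 17 calls. In the authors' deposited table, 8 were higher and 13 lower (12.6% and 12.7% of its genes with an adjusted p), with all 17 in the same direction. That table comes from the same libraries, and its direction was set by its correlation with the fold changes here (r = 0.999). The shared direction is therefore not a check on these calls.

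Base composition moved with direction. The median GC content of the transcript was 46.6% for the genes that rose, 54.3% for those that fell and 45.3% for the rest, and over all tested genes it was 45.5% for those that rose and 55.6% for those that fell. With offsets for GC content, 5 were higher and 12 lower, against 9.54% and 10.8% of tested genes. NOP58 (log2 0.72, adjusted p = 0.0663), MPHOSPH10 (0.66, 0.0575) and RIOK2 (0.53, 0.110) no longer passed with these offsets in edgeR, while DDX47 (−1.62, 0.0419), DDX52 (−0.72, 0.0466) and HEATR1 (−0.76, 0.0452) did. Whether GC content had a part in the direction of single genes was not tested beyond this.

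The rest of the pathway was as mixed. Of 99 further assembly factors, 16 were higher and 16 lower, with a median log2 fold change of 0.02. Over all tested genes 11.2% were higher and 11.4% lower. In the snoRNP list of 13, 2 were higher and 2 lower. NOP10, an H/ACA protein, went from 2.7 and 15.1 CPM to 104, 106 and 78.7 (log2 3.35, SE 0.62, adjusted p = 0.0207), with log2 values of 2.67 without control 1 and 5.15 without control 2. NAF1, an H/ACA assembly factor, went from 3.92 and 3.33 CPM to 11.8, 11.3 and 12.7 (log2 1.73, adjusted p = 0.0181). DKC1, the pseudouridine synthase of the same particle, fell from 3090.4 and 1745 CPM to 981, 938 and 801 (log2 −1.41, adjusted p = 0.0249). Other core proteins, named after their values were seen, did not pass: NHP2 of the H/ACA particle was at −0.42 (adjusted p = 0.220) and SNU13 of the box C/D particle at −0.01 (adjusted p = 0.982).

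The counts of each list below stand against 11.2% higher and 11.4% lower over all tested genes. Among 30 other 40S factors, 5 were higher and 4 lower. NGDN, a processome protein that holds a domain like that of UTP3, was at 1.91 (adjusted p = 0.014), DCAF13 at 1.40 (adjusted p = 0.0159) and NOM1 at −1.61 (adjusted p = 0.0163). Among 41 other 60S factors, 4 were higher and 8 lower, with EIF6, which keeps the 60S subunit from joining early, at −1.53 (adjusted p = 0.017), the methyltransferase FTSJ3 at −1.67 (adjusted p = 0.0209, and −1.04 without control 1) and TEX10 at 1.09 (adjusted p = 0.0215). In the nuclear exosome, which trims ribosomal RNA precursors, 5 of 15 were higher and 2 lower, with a median of 0.70. EXOSC3 rose from 7.59 and 11.0 CPM to 64.8, 78.2 and 85.1 (log2 3.01, SE 0.28, adjusted p = 0.0124), EXOSC8 was at 1.08 (adjusted p = 0.0227) and EXOSC1 at 1.21 (adjusted p = 0.0252).

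Upstream of assembly, 3 of 15 genes of the MYC network and polymerase I initiation were higher and 1 was lower, against 11.2% and 11.4% of tested genes. RRN3, which brings polymerase I to the promoter, rose from 31.1 and 30.7 CPM to 51.0, 70.9 and 66.3 (log2 1.02, adjusted p = 0.0275). UBTF, which binds ribosomal DNA, fell from 247 and 188 CPM to 126, 110 and 117 (log2 −0.89, adjusted p = 0.029). MAX, the partner of MYC, was at 1.58 (adjusted p = 0.034), and at 1.09 without control 1 and 2.42 without control 2. MYC itself, named after its values were seen, was at 44.8 and 17.4 CPM in the controls and at 59.6, 64.0 and 81.5 in the knockdown, above both controls, and did not pass (log2 1.15, adjusted p = 0.0813).

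Some counts can hold reads of other RNAs. In 6 of the 51 genes lie 18 small nucleolar RNA genes, of which 6 were tested and 2 passed, against 22.6% of all tested genes. All but SNORD86 lie inside introns. Counting was over exons, so reads within those introns do not enter the count of the host gene. SNORD57, in an intron of NOP56, was at 449 and 33.8 CPM in the controls and at 10.4, 10.4 and 8.73 in the knockdown (log2 −4.60, adjusted p = 0.0224), and at −1.77 without control 1. SNORD86, whose span is exonic in NOP56, was at 1.47 and 1.49 CPM and then at 3.07, 6.70 and 7.01 (log2 1.90, adjusted p = 0.0462), while NOP56 itself was at −0.73. Exons of 10 of the 51 overlap those of another gene, among the changed ones NOP14 (NOP14-AS1), NIP7 (COG8) and EBNA1BP2 (CFAP57). The counting used no strand option, so reads from such pairs cannot be told apart. CFAP57 held only 3 to 8 reads in any library, which limits what it can share with EBNA1BP2. COG8 held 121 or more and NOP14-AS1 334 or more. Named pseudogenes exist for 10 of the 51 in GENCODE v29, 45 of them for NPM1, 3 for NIP7 and 2 for PES1, so their counts are less certain.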

How the data were processed

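Per the file headers, the authors made the deposited counts with featureCounts 1.6.2 over exons by gene on hg38, with multi-overlapping reads counted for each gene and no strand option. The submitters' processing notes give STAR 2.7, an aligner. The labels and headers do not state read trimming or molecular identifiers. The authors' deposited comparison table holds a log2 fold change, its standard error, a mean signal, a test score and p-values. The same notes list DESeq2 1.22. The table's fold changes correlated with those fitted here, which set their direction.

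Counts were tested with edgeR 4.0.16 (R 4.3.3): genes kept by filterByExpr with a minimum count of 10, TMM scaling, quasi-likelihood test on all tested genes, Benjamini-Hochberg adjustment, threshold 0.05. SE is the size of the log2 fold change over the square root of F. Alternatives were other scalings, filters, DESeq2 1.42.0, limma-voom (limma 3.58.1), a replicate block, GC offsets, removal of TERT and short RNA genes, and each library left out. Every library's value was given for the genes with the smallest p in each role group and for TCOF1, FBL, NPM1, NCL, BOP1, PES1 and WDR12. Of each further pathway list, up to 3 genes with the smallest p among those past the threshold were named. Several of these have only a log2 value and an adjusted p. Members and lists were chosen with earlier results of these data known. Each library holds 4935096 to 9311026 counts, and every member had at least 66 counts in each library. Intervals of counting error are not given.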

Additional observations from a re-analysis of the deposited data

How the results depend on the processing

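The count of 8 higher and 9 lower was unchanged with RLE scaling, library size only, and TERT and short RNA genes removed; lower calls were 10 with no filter or limma-voom, 11 with the stricter filter (5 CPM in 2 libraries) and 15 with DESeq2. GC offsets gave 5 higher. Leaving out 1 library gave 0 to 17 higher and 0 to 21 lower. Control and knockdown libraries share only a replicate number (r of deviations −0.05 and −0.08 for the same-numbered pairs); with that number as a replicate block, 0 were higher and 0 lower (13, or 25.5%, at an unadjusted p under 0.05, against 22.8% of all genes), and 210 of all genes passed. AKAP12 passed with no filter (−0.996), the stricter filter (−1.06), TERT and short RNA genes removed (−1.04), GC offsets (−1.16), limma-voom (−0.98) and DESeq2 (−1.09). It did not pass with RLE (−1.09, adjusted p = 0.0505), library size only (−0.79, 0.0716), the replicate block (−0.93, 0.298) or any 1 knockdown library left out, and ranged from −1.42 to −0.52 with 1 library left out. Library size only moved the median of all genes to 0.23 and reversed DDX21 (0.11), WDR75 (0.0017), IMP3 (0.0745), RRP7A (0.0431), PNO1 (0.17), RIOK1 (0.18), TSR1 (0.22), WDR12 (0.0041) and GNL3 (0.11). Also reversed were RIOK1 (0.015) and TSR1 (0.022) with no filter, IMP3 with the replicate block (0.23), IMP3 (0.12), RRP7A (0.0103) and DDX10 (−0.0197) with GC offsets, and IMP3 (0.0075) and TSR1 (0.012) with limma-voom. With 1 library left out, log2 values spanned −0.14 to 1.42 for NPM1, −0.67 to 0.0881 for UTP20, −0.24 to 0.41 for RRP36, −0.28 to 0.19 for PNO1, −0.24 to 0.25 for TSR1, −0.31 to 0.64 for TCOF1, −0.59 to 0.75 for IMP3, −0.59 to 0.0030 for RRP9, −0.43 to 0.25 for RRP7A, −0.16 to 0.0594 for RIOK1 and −0.0767 to 0.26 for DDX56. None of these genes passed with all 5 libraries, and the cause was not tested.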
